A study of Mus musculus with 12 samples.

Results

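The 46 genes described here are chemokine genes (30 ligands) and chemokine receptor genes (16) of the mouse. Among the ligands, Cxcl11 is annotated as a transcribed pseudogene. The 46 were taken as every gene named by a microarray probe with 1 gene symbol that starts with Ccl, Ccr, Cxcl, Cxcr, Xcl, Xcr, Cx3cl or Cx3cr and a number. Cxcr1, Cxcr2, Cxcl1, Cxcl2, Cxcl3 and Cxcl5, the neutrophil axis, were left out. The 46 have 51 probes among the 28853 on the array, and stand among 19938 genes named in this way. Colon RNA came from 4 groups of male C57BL/6 mice, with 3 arrays in each group. WT and TSP-1-null mice were 7 weeks old at the start and received 1 injection of the mutagen azoxymethane (AOM, 10 mg/kg) and 4 cycles of 7 days of 1.5% dextran sulfate sodium (DSS) in the drinking water. They were killed 15 weeks after AOM, and the series describes the treated material as excised tumors while its samples are labelled colon. WT and TSP-1-null mice of the water groups, also 7 weeks old at the start, drank plain water and received neither agent. TSP-1-null mice lack the matrix glycoprotein thrombospondin 1 in every cell through a targeted mutation that still lets a transcript form.

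Chemokines are small secreted proteins whose gradients guide leukocytes that bear the matching G protein-coupled receptor. Inflammatory chemokines are switched on in injured tissue and draw monocytes, eosinophils and activated T cells, while homeostatic chemokines position B cells, T cells and dendritic cells in lymphoid tissue. The colon holds both kinds, since its epithelium and stroma call leukocytes into inflamed mucosa and its wall contains lymphoid follicles.

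Each value is a log2 signal relative to a baseline of its own probe, so that levels can be compared between arrays but not between genes. The AOM/DSS arrays and the water arrays are on different baselines, the labels of the water arrays carry the protocol of another DSS experiment, and genotypes were therefore compared only within each set. Calls required an adjusted p under 0.05 (limma, Benjamini-Hochberg over all probes) together with a difference of at least 2-fold, in every probe of the gene. The Thbs1 probe read 0.27, -0.16 and -0.07 on the treated WT arrays and 0.81, 0.85 and 0.93 on the treated TSP-1-null arrays (adjusted p = 0.0729), which does not check the labels of a mutation that leaves a transcript. A pair of the treated arrays stood apart in transcripts other than chemokines. TSP-1-null AOM/DSS replicate 3 carried pancreatic enzyme transcripts (median of 11 genes 6.36, against -0.06 and 0.01 on replicates 1 and 2) and the most B cell transcripts. WT AOM/DSS replicate 1 differed from the other treated WT arrays in 11 genes that mark position along the colon (10 Hox genes and Osr2), of which 7 were lower and 4 higher on it than on both others, and it lay near the TSP-1-null arrays. Hoxb13, a gene of the distal gut, read 0.43 on it, -6.33 and -5.89 on WT replicates 2 and 3 and 0.78, -0.06 and 0.06 on the TSP-1-null arrays. Hoxb6 read -3.44 on it, 1.28 and 0.98 on WT replicates 2 and 3 and -2.60, -3.25 and -3.43 on the TSP-1-null arrays. Transcripts of attached fat were split the same way (median of 5 genes -1.45, against 1.30 and 1.40 in WT and -1.74 to -0.94 in TSP-1-null). On water, replicate 3 of both genotypes stood apart in Hoxb13 and Hoxb6. Hoxb13 read -3.68 on it in WT and -4.24 in TSP-1-null, against 1.52 to 2.48 on the other water arrays. Hoxb6 read 1.13 and 1.26 on these arrays, against -0.12 to 0.11 on the others.

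A set of chemokine receptors and ligands of several leukocyte types reached higher transcript levels in TSP-1-null than in WT colons after AOM/DSS. Of the 46 genes, 3 were called higher, the receptors Cxcr4 and Ccr2 and the epithelial chemokine Cxcl14, and 0 were called lower. Among all 19935 genes tested, 1.82% were called higher and 1.34% lower. Without the fold minimum 8 of the 46 passed in the higher direction and 0 in the lower, against 5.54% and 3.65% of all genes. Of the 46, 16 had all 3 TSP-1-null arrays above all 3 WT arrays, against 19.7% of all genes. In 0 of the 46 all TSP-1-null arrays lay below, against 11.9%. The 8 are among the 16, which adds no separate support, since they were picked by their p on these same arrays.

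The log2 difference (TSP-1-null minus WT) was above 0 for 37 of the 46 genes, against 61.7% of all genes. Its median was 0.56 over the 46 genes and 0.13 over all genes, and it was 0.48 over the 30 ligands and 0.78 over the 16 receptors. Quantile normalization of the 12 arrays again moved the median of all genes to 0.02, and the median of the 46 genes was then 0.32, with 33 of them above 0. Of those that passed without the fold minimum, 5 were ligands and 3 receptors. In whole tissue, more cells of a type and more RNA per cell cannot be told apart.

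Markers of several cell types moved with genotype on the same arrays. Of all genes, 19.7% were higher without overlap, 5.54% passed in the higher direction and 3.65% in the lower. All 7 fibroblast markers were higher without overlap (median difference 0.91, 3 with an adjusted p under 0.05). The median difference was 1.97 over 10 neutrophil markers (2 passed), 1.20 over 8 mast cell markers (1 passed higher and 1 lower) and 0.65 over 8 markers of endothelium and lymphatics (1 passed). It was -2.04 over the 5 fat markers (1 passed lower) and -1.54 over the 11 genes of colon position (1 passed lower). The position genes went both ways, with 4 of the 11 above 0 and a range of -3.73 to 4.19. The mast cell median of WT replicate 1 (1.93) lay among those of the TSP-1-null arrays (1.32 to 2.44), against 0.01 and 0.07 on the other WT arrays. The part of these cells and of the position sampled in the chemokine values was not tested.

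**Figure D1:**
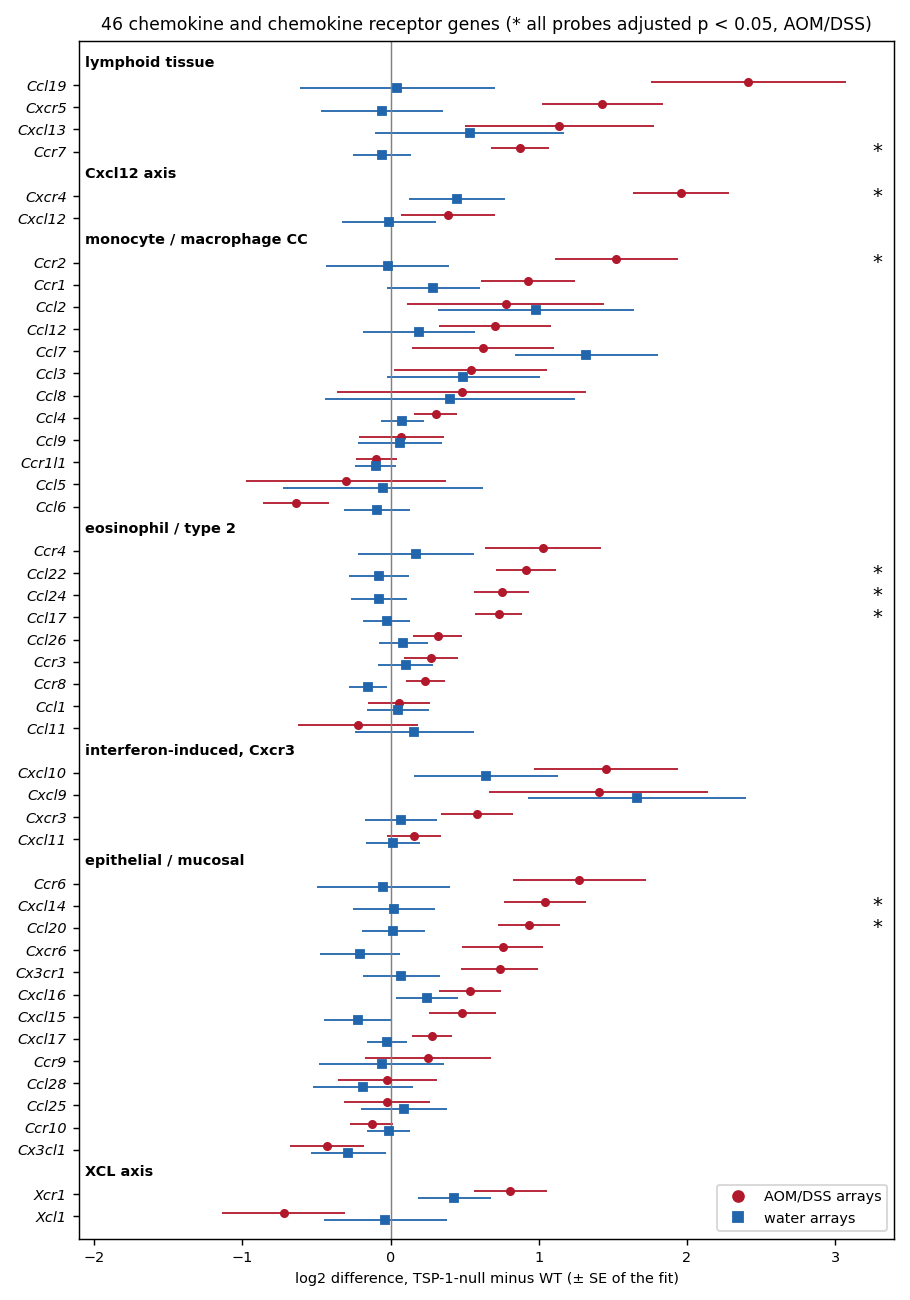
Log2 difference between TSP-1-null and WT arrays (x axis) for the 46 chemokine and receptor genes (y axis), grouped by role, with circles for the AOM/DSS arrays, squares for the water arrays and bars for the standard error of the fit. Asterisks mark the 8 genes whose probes all had an adjusted p under 0.05 in AOM/DSS, and 37 of the 46 circles lie to the right of 0.

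Cxcr4, the receptor for Cxcl12 that holds leukocytes in bone marrow and lymphoid tissue, showed the lowest adjusted p of the 46 genes. Its log2 values were -0.04, -0.53 and -0.63 on the treated WT arrays and 1.48, 0.93 and 2.28 on the treated TSP-1-null arrays. The lowest TSP-1-null array lay well above the highest WT array. Cxcr4 rose by 1.96 on the log2 scale (SE 0.32, 3.90-fold, adjusted p = 0.0142). Its ligand Cxcl12, made by stromal cells, had values of -0.36, 0.23 and 0.09 in WT and -0.09, 0.29 and 0.92 in TSP-1-null. These overlapped, and the log2 difference of 0.39 (SE 0.32) did not pass the test (adjusted p = 0.406).

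Among 12 inflammatory CC chemokines and receptors of monocytes and macrophages, 1 passed the test, and 9 had log2 differences above 0 (median 0.51). Of all genes, 5.54% passed in the higher direction and 61.7% were above 0. The gene that passed was Ccr2, the receptor with which monocytes leave the bone marrow and enter inflamed tissue. Ccr2 read -0.20, -0.57 and -0.24 in treated WT and 0.69, 0.84 and 2.02 in treated TSP-1-null colons. All TSP-1-null arrays were above all WT arrays, and replicate 3 was far above the other two. The rise was 1.52 on the log2 scale (SE 0.42, 2.87-fold, adjusted p = 0.0461).

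The ligands of Ccr2 did not pass. Ccl2, the main monocyte attractant, had values of 0.17, -0.28 and -0.29 in WT and -0.17, 0.78 and 1.30 in TSP-1-null (log2 difference 0.78, SE 0.66, adjusted p = 0.425). TSP-1-null replicate 1 lay within the WT range, and the other two lay above it. Ccl12, a mouse relative of Ccl2, differed by 0.70 (SE 0.38, adjusted p = 0.213), with 1.05 on TSP-1-null replicate 3 against -0.69 and -0.21 on replicates 1 and 2. Ccl7 did not overlap between the groups, with -0.38, -0.36 and -0.76 in WT and -0.20, 0.25 and 0.33 in TSP-1-null, but its log2 difference of 0.62 (SE 0.48) had an adjusted p of 0.377. The SE comes from all 4 groups, and the SD of Ccl7 was 1.33 among the WT water arrays, against 0.23 among the treated WT arrays. Over all probes the water arrays were the tighter set (median pooled SD 0.169, against 0.241 in AOM/DSS). Cxcr5 had an SD of 1.15 in treated TSP-1-null, but 0.05 and 0.04 in the WT and TSP-1-null water groups. With only the 2 groups compared, which leaves out the water arrays, Cxcr4 had an adjusted p of 0.108.

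Ccr1, a receptor of monocytes and neutrophils, read -0.13, 0.09 and 0.14 in WT and 0.62, 1.19 and 1.08 in TSP-1-null. Its arrays did not overlap, and the difference of 0.93 (SE 0.32) had an adjusted p of 0.0760. Ccl3, which binds Ccr1, overlapped at -0.30, -0.03 and -0.02 against -0.50, 0.83 and 0.94 (log2 difference 0.54, SE 0.52, adjusted p = 0.476). For Ccl2, Ccl3 and Ccl8, TSP-1-null replicate 1 was the lowest of the 6 treated arrays or within the WT range, at -0.17, -0.50 and -0.97.

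Ccl6, a myeloid chemokine that binds Ccr1, was the only gene of the 46 with an unadjusted p under 0.05 in the lower direction, where 12.6% of all genes had one, against 19 in the higher direction, where 21.4% did. Its values were -0.54, 0.31 and 0.12 in WT and -0.48, -0.75 and -0.79 in TSP-1-null. WT replicate 1 overlapped with the TSP-1-null arrays, and the log2 difference of -0.64 (SE 0.22) had an adjusted p of 0.0805. The adjusted p was 0.0200 without WT replicate 1, the only treated WT array near the TSP-1-null arrays in genes of colon position. In that fit genotype and position cannot be told apart. Ccl5, the T cell and monocyte attractant, was also low on WT replicate 1. It read -1.48, 0.29 and 0.39 in WT and -1.35, -1.61 and 1.26 in TSP-1-null (log2 difference -0.30, SE 0.67, adjusted p = 0.779).

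The macrophage marker list moved with these genes. All 11 measured markers of monocytes and macrophages were higher on average in treated TSP-1-null colons, 3 of them with an adjusted p under 0.05. Of all genes, 61.7% were above 0 and 5.54% passed in the higher direction. The median of the 11 per array was -0.41 to -0.08 in WT and 0.39 to 1.02 in TSP-1-null. The part of these cells in the values of Ccr2 and Ccr1 was not tested.

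Chemokines of type 2 immunity, which draw eosinophils and Th2 and regulatory T cells, formed the group with the most genes past the test. Of 9 measured, 3 passed (Ccl17, Ccl22 and Ccl24) and 8 had log2 differences above 0, with a median of 0.32. Of all genes, 5.54% passed in the higher direction and 61.7% were above 0. None of the 9 reached the 2-fold minimum and passed the test together. Ccl17, secreted by dendritic cells, read -0.13, 0.12 and -0.05 in treated WT and 0.79, 0.67 and 0.67 in treated TSP-1-null colons. These TSP-1-null arrays were the closest to each other of the 8 genes that passed, with an SD of 0.07, and all lay above the WT arrays. Ccl17 rose by 0.73 (SE 0.16, 1.66-fold, adjusted p = 0.0273).

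Ccl22, which shares the receptor Ccr4 with Ccl17, read 0.11, -0.06 and 0.31 in WT and 0.78, 0.77 and 1.54 in TSP-1-null. It rose by 0.91 (SE 0.20, 1.88-fold, adjusted p = 0.0280), and its arrays did not overlap. Their receptor Ccr4, carried by Th2 and regulatory T cells, had values of 0.50, 0.04 and -0.43 in WT and 1.27, -0.03 and 1.96 in TSP-1-null. The groups overlapped, and the difference of 1.03 (SE 0.39) did not pass (adjusted p = 0.0990). On replicate 2 both ligands lay above the WT range while Ccr4 was within it.

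Ccl24, an eotaxin made by macrophages, read -0.03, -0.52 and -0.04 in WT and 0.60, 0.39 and 0.67 in TSP-1-null, with no overlap (0.75, SE 0.19, 1.68-fold, adjusted p = 0.0375). Ccr3, the eotaxin receptor of eosinophils, overlapped at -0.60, -0.02 and -0.35 against -0.18, -0.18 and 0.21 (log2 difference 0.27, SE 0.19, adjusted p = 0.316). Ccl11, the eotaxin of stromal cells, was the only gene of this group with a negative difference, -0.22 (SE 0.40, adjusted p = 0.724). Of 4 measured eosinophil markers, 0 passed the adjusted test of limma and 1 had an unadjusted p under 0.05, and their median per array was -0.19 to 0.04 in WT and 0.05 to 0.42 in TSP-1-null.

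Among 13 chemokines and receptors of epithelium and mucosa, 2 ligands passed the test and 9 genes had log2 differences above 0 (median 0.48). Of all genes, 5.54% passed in the higher direction and 61.7% were above 0. Cxcl14, which resting epithelia secrete, read -0.56, -0.38 and 0.23 in WT and 0.83, 0.27 and 1.32 in TSP-1-null. The groups were separated by a narrow gap, between WT replicate 3 and TSP-1-null replicate 2. The rise was 1.04 (SE 0.28, 2.06-fold, adjusted p = 0.0419), just past the fold minimum. Ccl20, with which the epithelium over lymphoid follicles draws Ccr6-bearing cells, read 0.10, -0.24 and -0.53 in WT and 0.77, 0.28 and 1.09 in TSP-1-null. It did not overlap and rose by 0.93 (SE 0.21, 1.91-fold, adjusted p = 0.0293).

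Ccr6, the receptor of Ccl20 on B cells, dendritic cells and Th17 cells, varied more among the TSP-1-null arrays than its ligand did. It read 0.28, 0.41 and -0.30 in WT and 1.60, 0.08 and 2.53 in TSP-1-null (log2 difference 1.27, SE 0.45, adjusted p = 0.0832). TSP-1-null replicate 2 was again within the WT range.

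Cx3cr1, the receptor of gut-resident macrophages, read -0.28, -0.02 and -0.26 in WT and 0.59, 0.02 and 1.04 in TSP-1-null, without overlap but with a small gap (log2 difference 0.74, SE 0.26, adjusted p = 0.0835). Its membrane-bound ligand Cx3cl1 went the other way on the mean, at 0.17, -0.09 and 0.35 against 0.08, -0.07 and -0.88. These overlapped, and the difference of -0.43 (SE 0.25) did not pass (adjusted p = 0.246).

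Cxcr6, found on resident T and innate lymphoid cells, read -0.15, 0.07 and -0.13 in WT and 0.43, 0.53 and 1.10 in TSP-1-null, without overlap (log2 difference 0.76, SE 0.27, adjusted p = 0.0872). Its ligand Cxcl16 overlapped through WT replicate 1, at 0.69, -0.03 and -0.00 against 0.46, 0.70 and 1.11 (0.54, SE 0.21, adjusted p = 0.110). The remaining 6 genes of this group had differences between -0.13 and 0.48. For Ccl25, the attractant of small-intestinal T cells, the 2 probes pointed apart, at 0.34 and -0.39. The epithelial marker list had a median per array of 0.10 to 0.25 in WT and -0.57 to -0.01 in TSP-1-null, lowest on replicate 3. Of its 8 markers, 1 was lower by the test, against 3.65% of all genes.

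**Figure D2:**
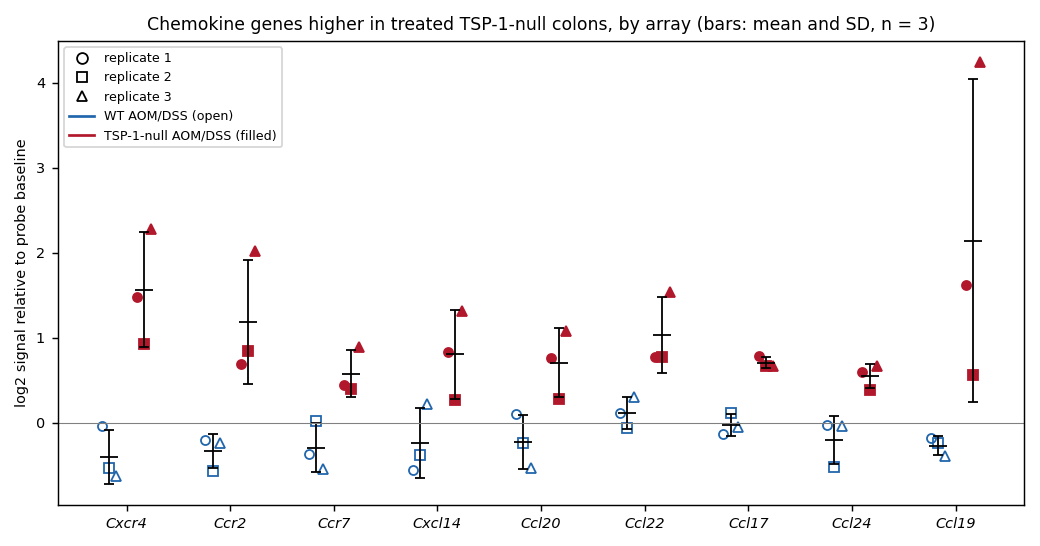
Log2 signal relative to the probe baseline (y axis) on each of the 6 AOM/DSS arrays for the 8 genes with an adjusted p under 0.05 and Ccl19 (x axis; mean of its 5 probes), with open symbols for WT, filled symbols for TSP-1-null and bars for mean and SD (n = 3). All TSP-1-null arrays lie above all WT arrays for each gene, and TSP-1-null replicate 3 (triangles) is the highest for 8 of the 9.

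The 4 measured genes of lymphoid tissue had the highest median of any role group, 1.28. All 4 had log2 differences above 0, against 61.7% of all genes. Ccl19, which draws naive T cells and mature dendritic cells into T cell zones, had the largest difference of the 46 genes. Its 5 probes gave nearly the same readings: the first of those called read -0.20, -0.26 and -0.39 in WT and 1.64, 0.60 and 4.27 in TSP-1-null. All TSP-1-null arrays lay above the WT arrays, and replicate 3 was far above the others.

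The difference was 2.29 to 2.45 over the 5 probes. Of these, 4 were called (adjusted p = 0.0420 to 0.0493), and the remaining probe missed the threshold at 0.0515, so that Ccl19 is not counted as called. The mouse genome holds near-identical copies of Ccl19, and the 5 probes may read the same transcripts.

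Ccr7, the receptor of Ccl19 on naive T cells and mature dendritic cells, read -0.36, 0.03 and -0.54 in WT and 0.44, 0.40 and 0.90 in TSP-1-null. It did not overlap and rose by 0.87 (SE 0.20, 1.83-fold, adjusted p = 0.0292). The 4 probes shared by the copies of Ccl21, the other ligand of Ccr7, have several symbols and are not among the 46 genes. They read 0.15, -0.53 and 0.05 in WT and 0.48, 0.36 and 1.63 in TSP-1-null (log2 difference 0.93, adjusted p = 0.0694 to 0.0695).

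Cxcr5, which brings B cells and follicular helper T cells into follicles, read -0.35, 0.13 and -0.32 in WT and 0.76, 0.41 and 2.57 in TSP-1-null. The arrays did not overlap, and the difference of 1.43 (SE 0.41) had an adjusted p of 0.0515. Its ligand Cxcl13, made by follicular stroma, read 0.01, -0.27 and 0.41 in WT and 1.78, -0.58 and 2.38 in TSP-1-null. Replicate 2 was the lowest of the 6 arrays, and the difference of 1.14 (SE 0.64) did not pass (adjusted p = 0.232).

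These genes followed the same order over the TSP-1-null arrays as the B cell markers did. The median of 9 measured B cell markers was 0.22, -0.27 and -0.07 in WT and 2.47, -0.10 and 4.23 in TSP-1-null replicates 1, 2 and 3. Of the 9, 2 passed the test in the higher direction, against 5.54% of all genes. The median of 12 T and NK cell markers was -0.08, 0.27 and 0.62 in WT and 0.41, 0.00 and 2.68 in TSP-1-null. On replicate 2, where neither marker list exceeded the WT range, Cxcl13, Ccr6 and Ccr4 did not exceed it either, while Ccl19, Cxcr5 and Ccr7 did. The part of B and T cells in these values was not tested.

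**Figure D3:**
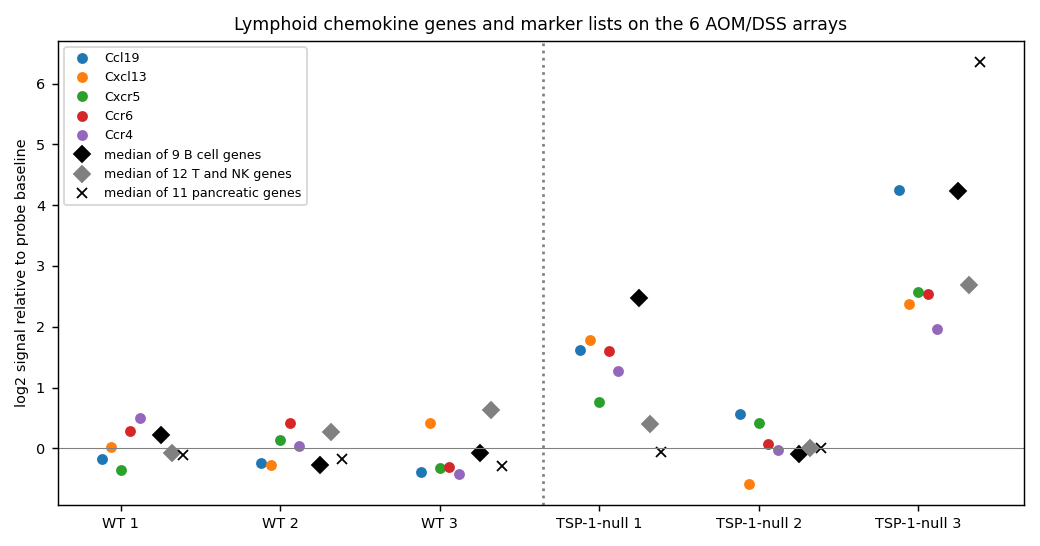
Log2 signal relative to the probe baseline (y axis) of Ccl19, Cxcl13, Cxcr5, Ccr6 and Ccr4 (circles) on each AOM/DSS array (x axis), beside the medians of the B cell and T and NK cell marker lists (diamonds) and of pancreatic enzyme genes (crosses). The 5 genes and both diamonds are highest on TSP-1-null replicate 3, where the pancreatic median is 6.36, and the B cell median is 2.47 on replicate 1 and -0.10 on replicate 2.

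Cxcl9 and Cxcl10, interferon-induced ligands of Cxcr3, were highest on TSP-1-null replicates 2 and 3, whereas Ccl19, Cxcl13 and Cxcr5 were highest on replicates 1 and 3. All 4 genes of this group had log2 differences above 0 (median 0.99), against 61.7% of all genes. Cxcl11, however, was at -0.01 after either quantile normalization. Of the 4, 2 had an unadjusted p under 0.05 in the higher direction, against 21.4% of all genes, and 0 passed the adjusted test of limma. Cxcl10, an attractant of activated T cells, read -0.13, -0.89 and -0.57 in WT and -0.00, 1.34 and 1.42 in TSP-1-null. The groups did not overlap, but replicate 1 lay just above the highest WT array, and the difference of 1.45 (SE 0.48) had an adjusted p of 0.0722. Cxcl9 read 1.14, -0.33 and 0.21 in WT and 0.18, 2.93 and 2.12 in TSP-1-null. It overlapped through WT replicate 1 and TSP-1-null replicate 1 (log2 difference 1.40, SE 0.74, adjusted p = 0.204).

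Cxcr3, their receptor on Th1 and cytotoxic T cells, read -0.40, 0.34 and 0.26 in WT and 0.25, 0.64 and 1.05 in TSP-1-null (0.58, SE 0.24, adjusted p = 0.124). Cxcl11, annotated as a transcribed pseudogene in GRCm38.p6, differed by 0.16 (SE 0.18, adjusted p = 0.559).

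Ccl19 and Cxcl10, the genes with the largest ligand differences, are shown with the 250 bases before their start (RefSeq, GRCm38.p6, minus strand of both), at chr4:42756366-42756615 and chr5:92348890-92349139. They are shown because both hold the core letters of an interferon-stimulated response element (TTTC, any 2 bases, TTTC), searched on both strands and here read as the reverse complement. Capitals mark the matches, and in Cxcl10 the later match is to an NF-kB form (GGGA, any 2 bases, TTCC), which does not overlap the earlier one.
Ccl19: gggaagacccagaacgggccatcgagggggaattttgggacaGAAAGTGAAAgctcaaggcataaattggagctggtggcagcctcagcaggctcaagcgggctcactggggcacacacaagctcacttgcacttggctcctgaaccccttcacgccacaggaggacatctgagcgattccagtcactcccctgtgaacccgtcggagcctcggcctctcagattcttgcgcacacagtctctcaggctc
Cxcl10: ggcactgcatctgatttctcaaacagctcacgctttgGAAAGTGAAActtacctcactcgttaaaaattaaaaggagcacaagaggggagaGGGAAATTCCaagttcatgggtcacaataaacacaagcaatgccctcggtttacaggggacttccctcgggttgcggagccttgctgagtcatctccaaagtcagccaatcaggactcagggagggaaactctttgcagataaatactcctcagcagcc
The first match begins 208 bases before the start of Ccl19 and 213 bases before that of Cxcl10, and the NF-kB form begins 159 bases before the start of Cxcl10. Promoters were at hand for 33 of the 46 genes (35 promoters). Of these 35, 3 held the interferon core (Ccl19, Cxcl10 and Cxcl14), against 2.98% of all 32851 mouse promoters of the same length, and 3 held the NF-kB form (Ccl1, Ccr3 and Cxcl10), against 1.21%. A match describes the letters only, and no binding was measured.

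The XCL pair, by which NK cells and CD8 T cells reach cross-presenting dendritic cells, split. The receptor Xcr1 read -0.46, -0.13 and -0.00 in WT and 0.80, 0.16 and 0.88 in TSP-1-null. Its arrays did not overlap, and the difference of 0.81 (SE 0.25) had an adjusted p of 0.0582. The ligand Xcl1 read -0.61, 0.73 and 0.84 in WT and -0.30, -1.25 and 0.35 in TSP-1-null, with overlap (log2 difference -0.72, SE 0.42, adjusted p = 0.243). Of 8 dendritic cell markers, among them Xcr1, 3 had an adjusted p under 0.05 in the higher direction, against 5.54% of all genes. The median of the 8 per array was -0.26 to 0.01 in WT and 0.18 to 0.95 in TSP-1-null.

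The TSP-1-null arrays contributed unequally to the 46 genes. Replicate 3 was the highest TSP-1-null array for 33 of them (71.7%), against 39.7% of all genes, and replicate 2 was the lowest for 22 (47.8%), against 34.8% of all genes. Over all its probes replicate 3 also had the widest values (SD 0.75, against 0.45 and 0.42 on replicates 1 and 2). Without replicate 3, only Cxcr4 had an adjusted p under 0.05 (log2 difference 1.61, adjusted p = 0.0319). The log2 differences of the other genes that passed were then 1.10 for Ccr2, 0.79 for Cxcl14, 0.75 for Ccl20, 0.65 for Ccl22, 0.71 for Ccr7, 0.75 for Ccl17 and 0.69 for Ccl24, with adjusted p between 0.0652 and 0.141. That of Ccl19 was 1.36.

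Without WT AOM/DSS replicate 3, 0 of the 46 genes had an adjusted p under 0.05, and Cxcr4 was at 0.0628. Only 104 probes of the whole array were called in that fit, against 802 with all arrays. Without TSP-1-null replicate 2, 16 genes had an adjusted p under 0.05, among them Ccl19, Cxcr5, Ccr4, Ccr6, Cxcl13, Cx3cr1 and Xcr1, with differences of 3.20, 1.85, 1.58, 1.94, 2.03, 1.00 and 1.04. With TSP-1-null replicate 3 and WT replicate 1 both left out, 4 genes passed in the higher direction (Cxcr4, Ccl20, Ccl22 and Cxcr5) and 3 in the lower (Ccl5, Ccl6 and Xcl1). Cxcr4 was at 1.79 (adjusted p = 0.00711) and Xcl1 at -1.56 (adjusted p = 0.0145) in that fit. WT replicate 1 was the only treated WT array near the TSP-1-null arrays in genes of colon position. Without it, genotype and the position sampled cannot be told apart.

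Several of the 46 genes are neighbours in the genome (GRCm38.p6, within 500 kb of the next). On chromosome 9, 7 receptor genes from Ccr9 to Ccr2 lie together, of which 6 had log2 differences above 0 and 1, Ccr2, passed the test. Of all genes, 61.7% were above 0 and 5.54% passed in the higher direction. The 7 ranged from -0.10 for Ccr1l1 to 1.52 for Ccr2. On chromosome 8, Cx3cl1 lies between Ccl22 and Ccl17, which rose by 0.91 and 0.73, while Cx3cl1 itself was at -0.43. On chromosome 11, the Ccl2 cluster of 6 genes ranged from -0.22 to 0.78 and the Ccl5 to Ccl4 cluster of 5 genes from -0.64 to 0.54, with 0 passing in either.

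Other genes of the pathway were read beside the shares of all genes, 1.82% called higher and 1.34% called lower. Of 13 atypical receptors and related ligands, 1 was called higher, Ppbp, a platelet-derived CXC chemokine, by 1.48 (adjusted p = 0.0270), and 10 had differences above 0. Ackr3, the scavenging receptor for Cxcl12, read -0.68, -0.56 and -0.61 in WT and 0.33, 0.06 and 0.22 in TSP-1-null without overlap (0.82, adjusted p = 0.0637). Of 27 signalling genes downstream of the receptors, Pik3cg, the leukocyte phosphoinositide 3-kinase, was called higher by 1.07 (adjusted p = 0.0427), and Plcb3, a phospholipase C, was lower at -0.78 (adjusted p = 0.0276). The median difference of the 6 genes of the neutrophil axis was 2.26, and 2 of them were called higher.

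On water, 0 of the 46 genes and 0 probes of the whole array were called between the genotypes (0.0% of genes in either direction). The median log2 difference was 0.03 over the 46 genes, 26 of which were above 0, against 51.7% of all genes. At an unadjusted p under 0.05, 2 of the 46 were higher in TSP-1-null (0.607% of all genes) and 0 lower (0.251%). These were the monocyte attractant Ccl7 and the interferon-induced Cxcl9.

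Ccl7 read -1.97, -2.61 and -0.05 on the WT water arrays and 0.05, -0.50 and -0.23 on the TSP-1-null water arrays, with WT replicate 3 among the TSP-1-null values (log2 difference 1.32, SE 0.48). Cxcl9 read -1.54, -1.24 and -0.56 in WT and 2.13, -0.53 and 0.06 in TSP-1-null, without overlap but with a gap of only a few hundredths (log2 difference 1.66, SE 0.74). The adjusted p of both was 1, with unadjusted p of 0.0179 and 0.0436. Cxcl9 was 1 gene of the 46 with all TSP-1-null water arrays above all WT arrays, against 2.37% of all genes, and Ccr1l1 was 1 with all below, against 2.46%.

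On water, TSP-1-null replicate 1 had the highest values of several inflammatory chemokines. That array read 0.81 for Cxcl10, against -0.83 and -1.09 on replicates 2 and 3 and -1.47, -0.73 and -0.83 in WT. It read 0.18 for Ccl2 (replicates 2 and 3 at -2.53 and -1.46, WT at -3.14, -2.66 and -0.95) and 0.11 for Ccl3 (-2.05 and -2.00, WT at -1.95, -2.01 and -1.44). For each of these it was the highest of the 6 water arrays. It was so for 10 of the 16 genes of the inflammatory CC and interferon-induced groups and 14 of all 46. The share of all genes highest on it among the 6 was not counted. Among the TSP-1-null water arrays alone, replicate 1 was the highest for 19 of the 46 (41.3%), against 26.6% of all genes. It was the lowest for 15 (32.6%), against 36.3%.

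The median of 10 neutrophil markers was 0.16 on this array. It was -2.75 and -2.28 on the other TSP-1-null water arrays and -2.53 to -1.62 in WT. The markers did not move as one. Cxcr2, Mmp8 and Ltf were highest on this array, while Ly6g, Csf3r, Mpo and Elane were highest on other water arrays. The pancreatic median of TSP-1-null water replicate 1 was 1.30, against -0.13 to 0.07 on the other water arrays. Without it the log2 difference of Cxcl9 was 0.88 and that of Ccl7 1.18. The part of neutrophils in these chemokine values was not tested.

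The genes that passed in AOM/DSS had smaller differences on water. They were picked by their AOM/DSS differences, and 0 genes of the whole array passed on water, so this says nothing about treatment. Cxcr4 read -1.18, -1.06 and -1.67 in WT and -0.38, -0.97 and -1.22 in TSP-1-null (log2 difference 0.45, SE 0.32), with overlap. The differences of the other 7 lay between -0.08 and 0.02.

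**Figure D4:**
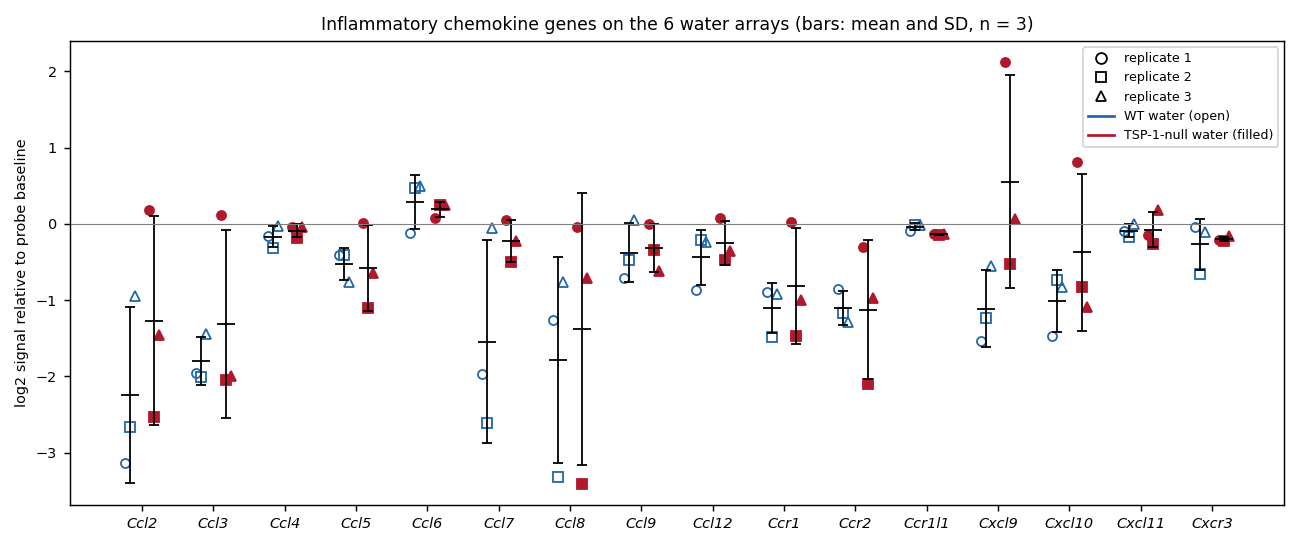
Log2 signal relative to the probe baseline (y axis) on each of the 6 water arrays for the 12 inflammatory CC genes and the 4 genes of the interferon-induced group, Cxcr3 included (x axis), with open symbols for WT, filled symbols for TSP-1-null and bars for mean and SD (n = 3). TSP-1-null replicate 1 (filled circles) is the highest of the 6 arrays for 10 of the 16 genes, with 2.13 for Cxcl9, and WT arrays are the highest for 5.

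The genotype difference in AOM/DSS was also set against that on water in 1 test, the difference of the differences, in which a baseline that differs between array sets cancels. Of the 46 genes, 0 passed (0.01% of all genes did, in the higher direction), and the lowest adjusted p was 0.239. The difference of the differences was above 0 for 36 of the 46 genes, against 60.7% of all genes. At an unadjusted p under 0.05, 12 were higher and 0 lower, against 9.56% and 6.39% of all genes. Cxcr4 had a difference of the differences of 1.51 (SE 0.46), Ccr2 of 1.54 (SE 0.59) and Ccl22 of 0.99 (SE 0.29). Thus 8 genes passed in AOM/DSS and 0 on water, but a difference between the treatments was not shown for any of them.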

How the data were processed

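RNA of 12 colons was measured on Affymetrix MoGene 1.0 ST arrays. The authors summarised the signals with PLIER16, quantile normalized them and gave log2 values with every probe centred, by their methods, on its median over the samples. The deposited log2 values were used unchanged. Only 4.18% of probes have a 12-array median within 0.001 of 0, so the water arrays, whose labels carry the protocol of another DSS experiment, lie on another baseline, and AOM/DSS was not tested against water. Relative values hold no absolute level, so the filter on low signals in the study's methods could not be applied.

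Of 28853 probes, 21789 have 1 symbol, 1621 several and 5443 none. The 28815 probes with values on all arrays, among them all 51 of the 46 genes, were fitted with limma 3.58.1 (R 4.3.3) with 1 mean per group over all 12 arrays and moderated variances, and p-values were adjusted over all probes with the Benjamini-Hochberg method. This takes the place of the analysis of variance in the study's methods. The script was tested on simulated data. Arrays are labelled biological replicates, and their number limits the precision of every value.

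Genes are named with their values if called, if at an unadjusted p under 0.05 in either comparison, or if they have the largest difference among the ligands or receptors of a role group, with their partners. Others are added where they share a receptor or a cluster with these. The genes and lists were chosen with earlier results of these data known. Names, neighbours and promoters come from RefSeq (GRCm38.p6). Marker lists of cell types were read as medians per array beside the results. Alternatives covered scaling, filters, variances, weights, the replicate block, gene-level means and each array left out. Leaving out both arrays that stand apart, and repeating the alternatives for the count without a fold minimum, were chosen after seeing the data.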

Additional observations from a re-analysis of the deposited data

How the results depend on the processing

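In AOM/DSS, 3 of the 46 genes were called. This number was 8 without the fold minimum, 0 with only the 2 groups compared and 0 with unmoderated variances. It was 1 with each array centred, 1 after quantile normalization of the 12 arrays again, 1 with array weights, 5 with the coefficient of variation filter (41 of the 46 genes tested) and 5 with gene-level means. With each array left out in turn it ran from 0 (without WT AOM/DSS replicate 3) to 12 (without TSP-1-null AOM/DSS replicate 2), and it was 1 without TSP-1-null AOM/DSS replicate 3 or any of the 3 WT water arrays. The 8 genes with an adjusted p under 0.05 became 0 with only the 2 groups compared, 1 after quantile normalization of the 12 arrays again, 2 with array weights and 0 with unmoderated variances. With an array left out they ran from 0 to 16, with 3 without WT AOM/DSS replicate 2, 1 without TSP-1-null AOM/DSS replicate 3, and 5 without TSP-1-null AOM/DSS replicate 1, WT water replicate 1 or WT water replicate 3.

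Cxcr4 had an adjusted p under 0.05 in 20 of 23 settings (0.00369 to 0.108 over all of them), and missed it with only the 2 groups compared (0.108), with unmoderated variances (0.0547) and without WT AOM/DSS replicate 3 (0.0628). The other called genes, Ccr2 and Cxcl14, had one in 7 of the 23 settings each, and those that passed without the fold minimum in 9 (Ccl24), 15 (Ccl17) and 16 (Ccl20, Ccl22 and Ccr7). The genes above changed no sign, but some that did not pass did. With both arrays that stand apart left out, Ccl12 (-0.0286), Cxcl12 (-0.0565) and Ccl8 (-0.0416) turned negative and Ccl25 positive (0.0652), as was Ccl25 with array weights (0.1818). Cxcl11 was at -0.0122 and -0.0129 after quantile normalization of the 12 arrays and within each array set. With an array left out, Ccl5 ran from -1.2101 to 0.2215, Ccl25 from -0.2619 to 0.2058, Ccr1l1 from -0.214 to 0.0598 and Cxcl11 from -0.0055 to 0.3469. Of the water comparison 0 genes were called in every setting. Of the difference of the differences 1 was called without TSP-1-null AOM/DSS replicate 2 and 0 otherwise, in leave-one-out fits from 0 to 1.

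Replicate numbers are shared between the groups, and the labels do not say that they pair the mice. Deviations of same-numbered arrays correlated at 0.03, -0.04 and -0.02 in AOM/DSS and at 0.09, 0.28 and 0.40 on water. Arrays of different numbers were not correlated for comparison. With the replicate number as a block 3 genes were called in AOM/DSS, 0 on water and 0 for the difference of the differences. The cause of the changes with scaling was not tested. Signals over background are not known from relative values, so whether a gene was detected cannot be read.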
